A study of Caenorhabditis elegans with 2 samples.

Results

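The PAR cell polarity genes of Caenorhabditis elegans are 9 genes taken by name: par-1 to par-6, pkc-3, cdc-42 and lgl-1, of 19973 nuclear protein-coding genes. They were set against the places where EFL-1, an E2F family transcription factor, was found by chromatin immunoprecipitation followed by sequencing (ChIP-seq). The chromatin came from whole young adult hermaphrodites of strain YL478, a transgenic line that stably makes EFL-1 with a C-terminal GFP-FLAG tag, and its description names an anti-GFP antibody, while its antibody field names efl-1. The age of the animals is recorded as unknown. A single group of 2 biological replicates leaves no contrast between conditions. The authors deposited an optimal set of 2825 peaks, thresholded by the irreproducible discovery rate (2802 of them nuclear), a joint list of 30000 regions called on both replicates, which reaches down to background, and a list of 30000 regions for each replicate. Read depth is unknown from these lists. Because tissues are mixed, strong binding in a few cells and weak binding in many cannot be told apart.

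The PAR proteins divide the cortex of the one-cell embryo into an anterior and a posterior domain before the first, unequal division. PAR-3 and PAR-6, scaffold proteins with PDZ domains, work at the anterior with the atypical protein kinase C PKC-3 and the small GTPase CDC-42. The kinase PAR-1, the RING finger protein PAR-2 and LGL-1, the worm homologue of Drosophila Lethal giant larvae, occupy the posterior. PAR-4, the homologue of the kinase LKB1, and PAR-5, a 14-3-3 protein, are found throughout. The embryo receives these proteins or their mRNAs from the germ line of the mother. E2F proteins bind DNA with a DP partner, and in the DREAM complex, which E2F and DP can join, the subunit LIN-54 contacts elements of the form TTCGAA or TTTGAA.

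None of the 9 genes had an optimal peak with its summit within 500 bp of an annotated start site, the window used to call a promoter peak (0 of 9, exact 95% interval 0 to 33.6%, for counting error only). Of all protein-coding genes 10.9% had one, and 5.92% had one within 200 bp, where the members' count was also 0. The 0 within 500 bp rests on replicate 1 and on the cut of the list. Without replicate 1 the count was 2 (par-5 and pkc-3), where 10.5% of all genes had a peak. With 2 times as many regions of the joint list it was 2, the same genes, where 16.8% of all genes had one. Yet some of the strongest peaks of the genome lay just beyond that window. The summits nearest upstream were 513 bp from par-3, 639 bp from par-2, 698 bp from par-5 and 821 bp from an internal start site of par-1. Within 1000 bp, 4 of the 9 genes (44.4%, 13.7 to 78.8) had an optimal peak, against a background of 13.8%. The members were chosen with these data known, so the shares are descriptive. In the joint list, 8 of the 9 had a region of some strength within 500 bp, against 35.5% of all genes, and lgl-1 had none. Start sites were unequal in number, from 1 in pkc-3, cdc-42 and lgl-1 to 11 in par-1, with 29314 over all 19973 genes. A gene with more of them has more windows to hold a peak, and these shares are not adjusted for that. In the counts of 4 and of 8, par-1 entered only through internal start sites.

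The DNA under the 4 upstream peaks is shown because these are the only optimal peaks within 1000 bp upstream of a PAR gene start site. Each stretch runs 5′ to 3′ on the strand of the PAR gene, from 100 bp before to 100 bp after the summit, on build WBcel235 (ce11) from the RefSeq genome sequence. The par-2 stretch is cut at an annotated untranslated region that holds the summit itself. Capitals mark E2F cores, which are TTCCCGC together with the variants TTCGCGC as well as TTGCCGC and lastly TTGGCGC, on either strand. Capitals also mark the elements TTCGAA and, by one letter different, TTTGAA. On the opposite strand a core reads, for example, GCGGGAA in par-3, and TTTGAA appears as its reverse complement.
par-3, chrIII:5663620-5663820, plus strand: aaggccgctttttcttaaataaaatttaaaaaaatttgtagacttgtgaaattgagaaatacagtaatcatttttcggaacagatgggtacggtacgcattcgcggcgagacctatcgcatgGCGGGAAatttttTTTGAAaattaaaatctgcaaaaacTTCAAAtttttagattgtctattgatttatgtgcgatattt
par-2, chrIII:1080776-1080862, plus strand: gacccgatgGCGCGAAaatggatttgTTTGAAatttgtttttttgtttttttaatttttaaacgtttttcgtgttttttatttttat
par-5, chrIV:11822522-11822722, minus strand: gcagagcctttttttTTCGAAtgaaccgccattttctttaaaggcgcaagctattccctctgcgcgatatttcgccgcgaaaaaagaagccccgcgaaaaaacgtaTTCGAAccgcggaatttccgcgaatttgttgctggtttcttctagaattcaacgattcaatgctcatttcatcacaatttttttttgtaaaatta
par-1, chrV:14133075-14133275, minus strand: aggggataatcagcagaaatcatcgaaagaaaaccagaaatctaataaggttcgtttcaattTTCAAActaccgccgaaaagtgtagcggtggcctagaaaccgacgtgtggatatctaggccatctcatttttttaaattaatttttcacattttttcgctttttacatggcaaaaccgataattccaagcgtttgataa

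**Figure D1:**
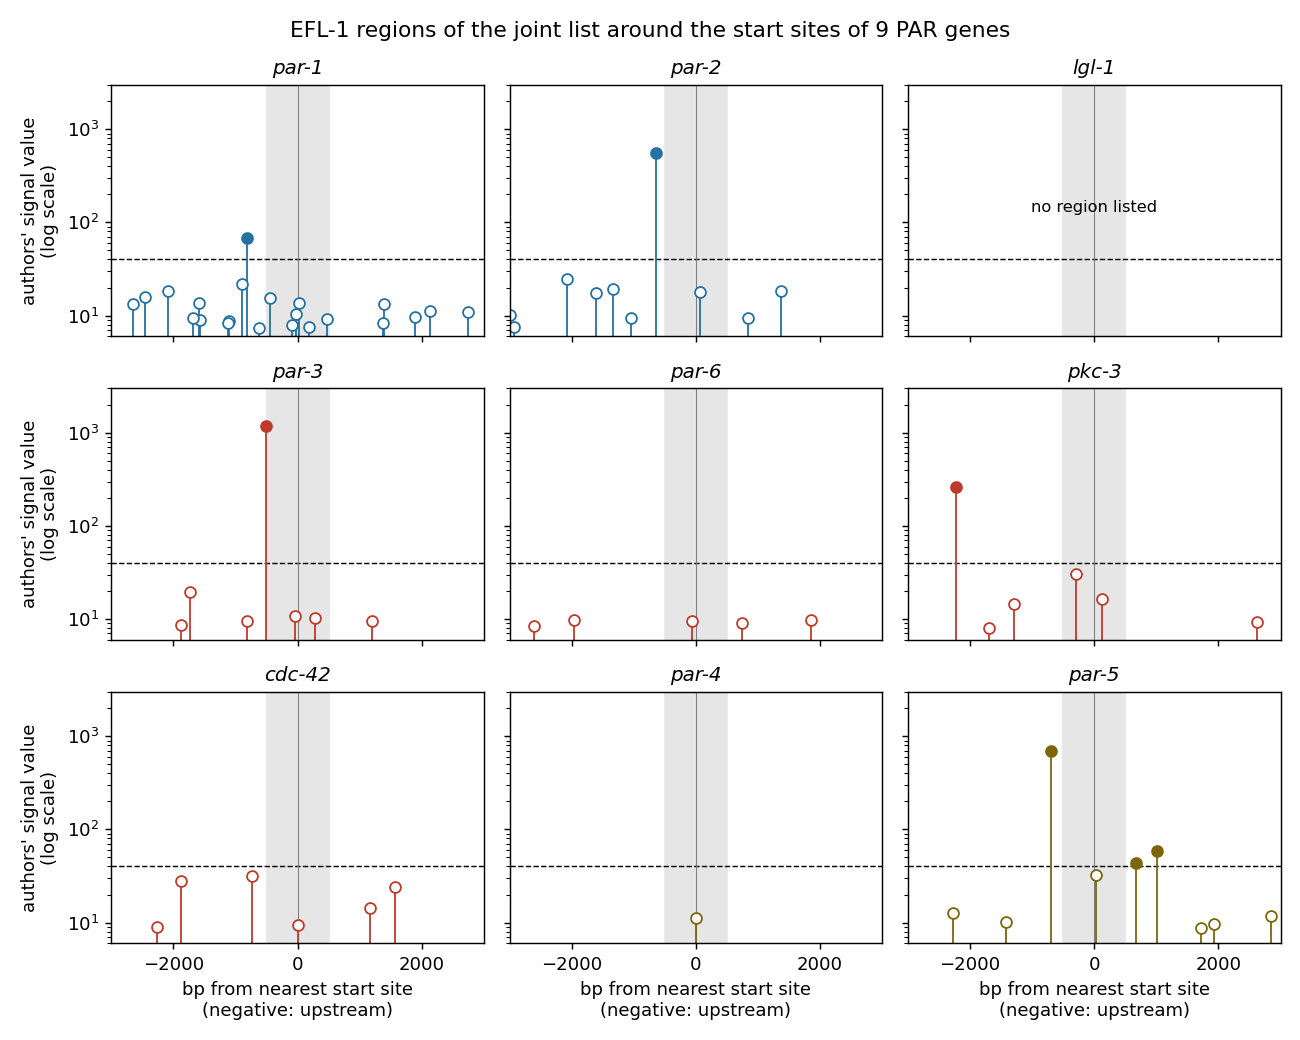
Regions of the joint list around each PAR gene, by distance in bp from the summit to the nearest start site of the gene (x axis) and the authors' signal value (y axis, log scale). Filled points are optimal peaks and open points are other regions, the dashed line is the lowest optimal signal (40.1), the grey band is 500 bp to either side, and colours mark anterior (red), posterior (blue) and uniform (brown) proteins. Filled points for par-3, par-2, par-5 and par-1 lie just outside the band.

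Among the anterior genes, par-3 (WBGene00003918, III, 5664233 to 5676795, plus strand) carried the strongest peak. The peak ran from 5663556 to 5663869 in intergenic sequence, with a signal value of 1177 and rank 34 of the 2802 nuclear optimal peaks. It had 714 in replicate 1 (rank 23) and 456 in replicate 2 (rank 49), and it is therefore among the strongest regions of each. These values are the authors' own per peak, and the sources used here state no scale for them. The peak stood 29.3-fold above the weakest optimal peak, at 40.1. The summit was 513 bp upstream of the outermost start site and 652 bp upstream of the first coding base. No other protein-coding start site was near: the next belonged to F54E7.6, at 2635 bp. With RefSeq start sites in place of Ensembl ones par-3 still had no peak within 500 bp. At the start of par-3 itself the joint list held a region of only 10.8 (rank 18499), which had 16.03 in replicate 2 and no overlapping region in replicate 1. Toward the other end, a region over the 3′ untranslated regions of par-3 and of F54E7.9 reached 38.9 (rank 2909), close under the optimal set. It was unequal between the replicates, with 34.5 in replicate 1 and 8.71 in replicate 2. Further past that end, between ska-3 and rps-12, lay an optimal peak from 5679008 to 5679251 with a signal of 501 (rank 146), and 252 and 249 in the replicates.

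Around pkc-3 (WBGene00004034, II, 5380027 to 5384169), the kinase of the anterior complex, binding was weak at the start. The strongest region within 500 bp lay 302 bp upstream, from 5379580 to 5379869, with a signal of 30.5 and rank 3879. Its values were 20.1 in replicate 1 (rank 3645) and 21.4 in replicate 2 (rank 2612). It was thus below the 2802 strongest regions in replicate 1 and above that mark in replicate 2. The nearest optimal peak was 2225 bp upstream, at 5377501 to 5377974, with a signal of 261 (125 in each replicate). That summit lay 393 bp from a start site of prdx-2, a peroxiredoxin gene which lies upstream of pkc-3 on the same strand and ends 395 bp short of it.

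The remaining anterior genes had no optimal peak nearby. At cdc-42 (WBGene00000390, II, 7616452 to 7618245) a region 732 bp upstream of the start site had 31.7 (rank 3688), with 13.7 in replicate 1 and 12.7 in replicate 2. The region over the start site itself had 9.39 and overlapped none in either replicate, and the nearest optimal summit was 17287 bp away. For par-6 (WBGene00003921, I, 12669380 to 12674449) the region 58 bp upstream of the first start site had 9.60 (rank 21443), with 4.97 and 5.55 in the replicates. Its nearest optimal summit was 4315 bp upstream. The lowest signal in the nuclear joint list was 7.02, so these regions at the starts of cdc-42 and par-6 lie near the bottom of it.

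Of the posterior genes, par-2 (WBGene00003917, III, 1081401 to 1095082, plus strand) had a strong peak that other genes share. It ran from 1080631 to 1080887 with a signal of 564 and rank 123, and had 317 in replicate 1 (rank 115) and 255 in replicate 2 (rank 130). The summit was 639 bp upstream of par-2. However, it was 13 bp inside rab-18, a Rab GTPase gene on the opposite strand, in its 5′ untranslated region, and 139 bp upstream of kbp-4, a gene for a kinetochore protein. The short gene kbp-4 lies between the peak and par-2 on the same strand and ends 100 bp before par-2 begins. The region at the par-2 start, with its summit 67 bp downstream of a start site, had 18.1 (rank 8243), with 8.93 and 11.7 in the replicates. The genes that share this peak and the next ones were named after their values were seen.

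For par-1 (WBGene00003916, V, 14112033 to 14145367, minus strand), the gene of the posterior kinase and the longest of the 9, 11 start sites are annotated. The optimal peak, from 14133030 to 14133319, was in an intron, 821 bp upstream of an internal start site and 12192 bp inside the outermost one. Its signal was 67.5 (rank 1628), with 33.9 in replicate 1 (rank 1925) and 26.1 in replicate 2 (rank 2057), among the 2802 strongest regions of each. No other gene's coding start site lay within 3000 bp of it. The piRNA gene 21ur-15491 (14133057 to 14133077) lies inside the peak, near one end. The strongest region within 500 bp of any start site of par-1 had 15.5 (rank 10594) and overlapped none in either replicate. The gene and its 3000 bp flanks held 24 regions with a median signal of 10.5.

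The gene lgl-1 (WBGene00018987, X, 864097 to 871089) was the 1 member on the X chromosome and the 1 without any region. No region of the joint list lay in the gene or within 3000 bp of it, and the nearest was 53560 bp from its start site. The nearest optimal summit was 64400 bp away, with a signal of 50.3. Of 2731 X-linked genes 1.17% had an optimal peak within 500 bp and 16% had any joint region within 1000 bp, so that lgl-1 resembled most X-linked genes in this respect.

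The genes of the uniformly distributed proteins differed from each other. At par-5 (WBGene00003920, IV, 11820506 to 11821924, minus strand), the 14-3-3 gene, the peak from 11822487 to 11822780 had a signal of 688 and rank 95. It had 366 in replicate 1 (rank 91) and 317 in replicate 2 (rank 95). The summit was 698 bp upstream of par-5 and 416 bp downstream of the start site of the divergent gene M117.3, in an intron of that gene. M117.3 therefore received this peak under the 500 bp rule, and par-5 did not. Over the start of par-5 the joint list had a region of 32.1 (rank 3629), with 21.4 in replicate 1 (rank 3346) and 29.9 in replicate 2 (rank 1771). Another 2 optimal peaks lay at the 3′ end of the gene. The first, in the 3′ untranslated region, had 43.4 (33.8 and 40.9 in the replicates), and the second, just past the gene, had 58.6 (35.4 and 19.2). They are close to the 40.1 of the weakest optimal peak.

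By comparison, par-4 (WBGene00003919, V, 18098687 to 18106405), the LKB1 homologue, had 1 region within 1000 bp, over its first coding exon, with a signal of 11.2 (rank 17446). The strongest region of replicate 1 that overlaps it had 10.8, with its own summit 221 bp upstream of the start site, and replicate 2 had no region within 1000 bp. The nearest optimal summit was 11710 bp away. Strong upstream peaks lay near par-3, par-2 and par-5, a gene of each group. Those of par-2 and par-5 were nearer to start sites of other genes, 13 bp from rab-18 and 416 bp from M117.3. Among these, only the par-3 peak had no other gene's start site nearer. Each group of proteins also had a member with no optimal peak within 1000 bp, namely par-6, pkc-3 and cdc-42, then lgl-1, then par-4.

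**Figure D2:**
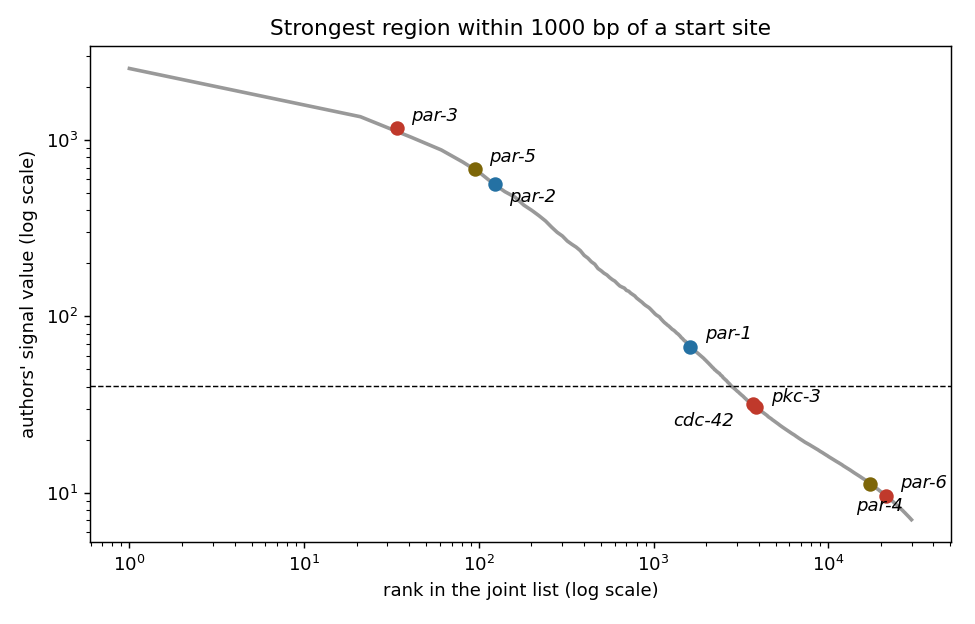
The strongest region within 1000 bp of a start site of each PAR gene on the curve of signal against rank for the nuclear joint list (both axes log scale); the dashed line is the lowest optimal signal, 40.1. The genes par-3 (1177), par-5 (688) and par-2 (564) lie far above the line, par-1 (67.5) just above it, and cdc-42 (31.7), pkc-3 (30.5), par-4 (11.2) and par-6 (9.60) below it; lgl-1 has no region and is not drawn.

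Ordered by the strongest joint region within 1000 bp, the genes ran par-3, par-5, par-2, par-1, cdc-42, pkc-3, par-4 and par-6, with lgl-1 last. In each replicate's own list par-3 was highest, followed by par-5, par-2 and par-1. The values of par-5 (366 and 317) and par-2 (317 and 255) were ordered the same way in each replicate, with par-5 higher, while their ranges over both replicates meet. No test of this order is possible with 2 replicates. Likewise cdc-42 and pkc-3 changed places: pkc-3 was higher in both replicates (20.1 and 21.4 against 13.7 and 12.7) and lower in the joint list. Set among all 19973 genes by the same measure, par-3 was at percentile 99.8, par-5 at 99.4 and par-2 at 99.1. By contrast par-1 was at 90.7, cdc-42 at 83.6, pkc-3 at 83.1, par-4 at 65.8 and par-6 at 62.7, where 42.5% of genes had any region at all. These percentiles are not adjusted for the number of start sites, 11 in par-1 and 1 in cdc-42 and in pkc-3. The place of par-1 comes from an internal start site.

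The replicate values at the upstream peaks were set side by side. Each of the 4 overlapped 1 region in each replicate by at least 1 bp, and did so also with 50% reciprocal overlap. The optimal set was thresholded by the irreproducible discovery rate, and 2765 of its 2802 nuclear peaks had a region in both replicates. Overlap in both therefore sets these 4 peaks apart from few others. The ratio of replicate 1 to replicate 2 was 1.56 for par-3, 1.30 for par-1, 1.24 for par-2 and 1.16 for par-5. Over the 2765 nuclear optimal peaks with a region in both, the median ratio was 1.21 and the quartiles were 0.908 and 1.64, so that all 4 lie between the quartiles. The optimal peak in the 3′ untranslated region of par-5 had 0.826, below the lower quartile. The lists were called separately, and these ratios are descriptive.

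**Figure D3:**
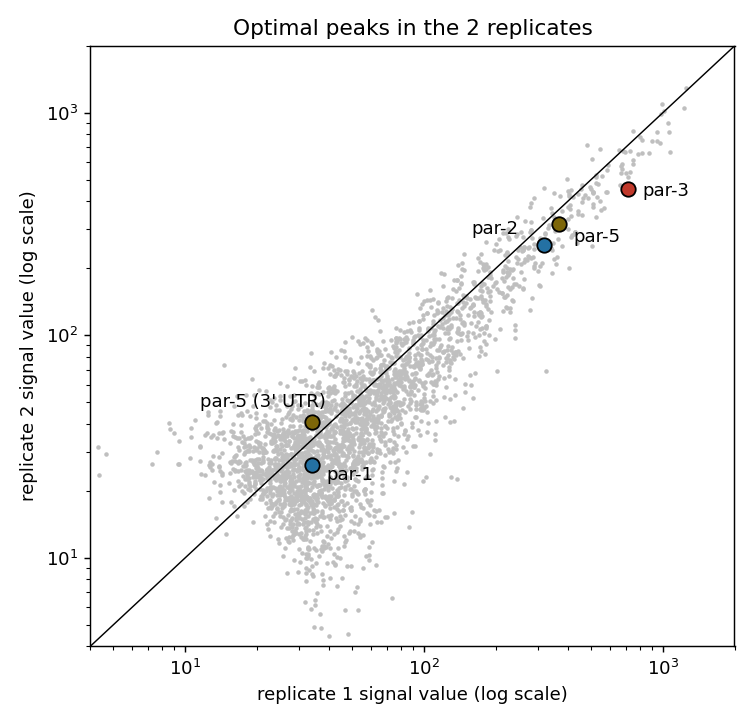
Signal value of each nuclear optimal peak in replicate 1 (x axis) and replicate 2 (y axis), both on log scales, with the line of equality; coloured points are the 5 optimal peaks within 1000 bp of a PAR gene start. The par-3 point (714 and 456) is below the line by more than those of par-2 and par-5, and the par-1 point (33.9 and 26.1) lies in the dense lower part.

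Peaks beyond 500 bp were then counted over all genes. In total 562 genes (2.81%) had an optimal peak within 1000 bp and none within 500 bp, and for 412 of them the strongest was upstream. Over all 562 genes, the strongest such peak of each gene had a median signal of 88.5. By signal, par-3 was number 13 of the 562, par-5 number 24, par-2 number 35 and par-1 number 347. Of the 100 strongest nuclear optimal peaks 16 had no protein-coding start site within 500 bp, and 9 of those 16 had one within 1000 bp. The par-3 peak was one of the 9, whereas the peaks upstream of par-5 and par-2 had the start sites of M117.3, rab-18 or kbp-4 within 500 bp. When each peak was given only to its nearest start site within 1000 bp, par-3 and par-1 kept their upstream peaks, par-5 was reached only by the peak in its 3′ untranslated region, and par-2 had none.

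**Figure D4:**
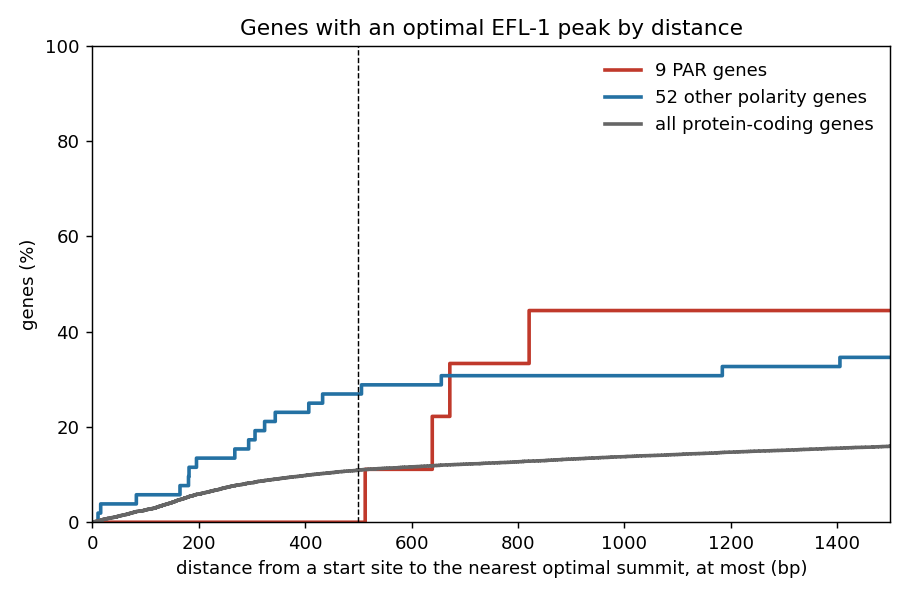
Percent of genes (y axis) with an optimal summit at most a given number of bp from a start site (x axis), for the 9 PAR genes (red), 52 other polarity genes (blue) and all protein-coding genes (grey); the dashed line marks 500 bp. The red line stays at 0 up to 500 bp and then steps up to 44.4% by 1000 bp, while the grey line reaches 10.9% and 13.8%.

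Sequence within 100 bp of each summit was then compared, for par-2 over the whole window and not only the shorter stretch printed above. An E2F core lay within 100 bp of the summit in 2 of the 4 upstream peaks, those of par-3 and par-2. In par-3 the core TTCCCGC began 22 bp past the summit, and in par-2 the core TTCGCGC began 23 bp past it, both on the strand opposite to the gene. Each was followed by TTTGAA on the gene's strand, with 6 bases between them in par-3 and 10 in par-2. In par-2 a TTCGAA also lay 81 to 86 bp before the summit, outside the printed stretch, and the core overlaps the shorter form TGGCGC of the other strand. A core was found in 29.7% of all nuclear optimal peaks (28.0 to 31.4), in 69.5% of the 200 strongest, in 9.76% of the other regions of the joint list and in 5.30% of equal windows around outermost start sites. Of the 533 optimal peaks with a core and an element, 49.0% had a pair at most 10 bases apart, and the median gap was 11. The limit of 10 equals the spacing in par-2, so par-3 and par-2 meet it by construction.

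The par-5 peak had no full core within 100 bp of its summit. It had the shorter form TCGCGC, the last letters of TTCGCGC, 34 to 39 bp before the summit in the direction of the gene, and TTCGAA at 6 and at 85 bp from it. In par-1 neither form of the core was present, and TTTGAA lay 33 to 38 bp before the summit on the opposite strand. The shorter cores, TCCCGC together with the variants TCGCGC as well as TGCCGC and lastly TGGCGC, all contained in the full ones and searched on both strands, were in 48.0% of optimal peaks, 18.7% of other joint regions and 12.5% of start site windows. The elements TTCGAA and, by one letter different, TTTGAA are common, at 58.7% of optimal peaks, 50.2% of other joint regions and 50.5% of start site windows, and all 4 upstream peaks held one, a number too small to set against those shares. The G and C content of the 201 bp around the summit was 31.8% in par-3, 36.3% in par-1, 39.3% in par-2 and 40.3% in par-5, and the median optimal peak had 38.3%. A match of letters does not show that a factor binds there.

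Other genes of polarity and asymmetric division were counted by role. Their list and groups were drawn up with earlier results of these data known, so the shares and intervals are descriptive. Of 52 such genes, 14 (26.9%, 15.6 to 41.0) had an optimal peak within 500 bp, against 10.9% of all genes, and their median signal was 360. Most belonged to the partners of the PAR proteins in asymmetric division, with 11 of 22 genes (50%, 28.2 to 71.8). The strongest were mex-5 (1021, with 578 and 442 in the replicates), a zinc finger protein that relays PAR polarity to the cytoplasm, and gpr-2 (955, with 495 and 463), which links G proteins to spindle pulling forces. Next came lin-5 (838, with 405 and 434), a coiled-coil partner of GPR-1/2, and the Polo kinase gene plk-1 (769, with 400 and 377). The gene rga-3 had 637, the centrosome gene spd-2 had 585, mex-6, the close relative of mex-5, had 382 and gpr-1 had 338. Weaker peaks were at let-99 (165), which shapes spindle positioning, at ect-2 (81.7) and at the centrosome gene spd-5 (70.9). Among the genes without a promoter peak were mbk-2, nmy-2, mlc-4, cgef-1, chin-1, rga-4, pac-1, air-1, goa-1 and gpa-16, which include the genes of non-muscle myosin and of the Aurora A kinase.

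Several of these peaks had a further gene starting no more than 500 bp away, as that of mex-5 had rec-8, gpr-1 with polk-1, gpr-2 with rgr-1, spd-2 with F32H2.10, let-99 with hsb-1 and spd-5 with npp-6. When each peak was given only to its nearest start site within 500 bp, 11 of the 52 genes kept a promoter peak. Those of mex-5, gpr-2 and gpr-1 were lost, and the share over all genes was 8.75%. The genes gpr-1 and gpr-2 are near copies. In their windows of 201 bp around the summit, 162 of 185 aligned positions were identical, so reads could be shared between the copies, and their values are uncertain. Of the 11 peaks of division partners under the 500 bp rule, most (9) were upstream of the start site, between 83 and 433 bp from it. Their distance is not comparable with that of the PAR gene peaks, since the 500 bp rule chose them. An E2F core was within 100 bp of 6 of the 11 summits, in rga-3, spd-2, let-99, gpr-1, gpr-2 and lin-5. The near copies gpr-1 and gpr-2 are counted separately here. The share was 29.7% over all nuclear optimal peaks and 69.5% over the 200 strongest.

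The other 4 groups are given beside the 10.9% of all genes and the 1.17% of X-linked genes, and their difference from the division partners was not tested. Of the 6 PAR-4 partners and related kinases only pig-1, a kinase gene that acts in asymmetric neuroblast divisions, had one (115, with 57.0 and 63.8). Of the 6 CDC-42 effectors mrck-1 (62.0) and toca-2 (41.8) had one. None of 9 paralogs of PAR genes (exact 95% interval 0 to 33.6%) and none of 9 genes of epithelial polarity and junctions (0 to 33.6%) did. In each of those a single gene had an optimal peak within 1000 bp, ftt-2, the second 14-3-3 gene, at 506 bp upstream (47.7) and ajm-1 at 656 bp upstream (53.5). On the X chromosome lie 11 of the 52 genes, and none of the 11 had a promoter peak. Only 1 of these 11 is a division partner, while 3 are paralogs, 3 are epithelial genes, 2 are CDC-42 effectors and 2 are in the PAR-4 group.

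**Figure D5:**
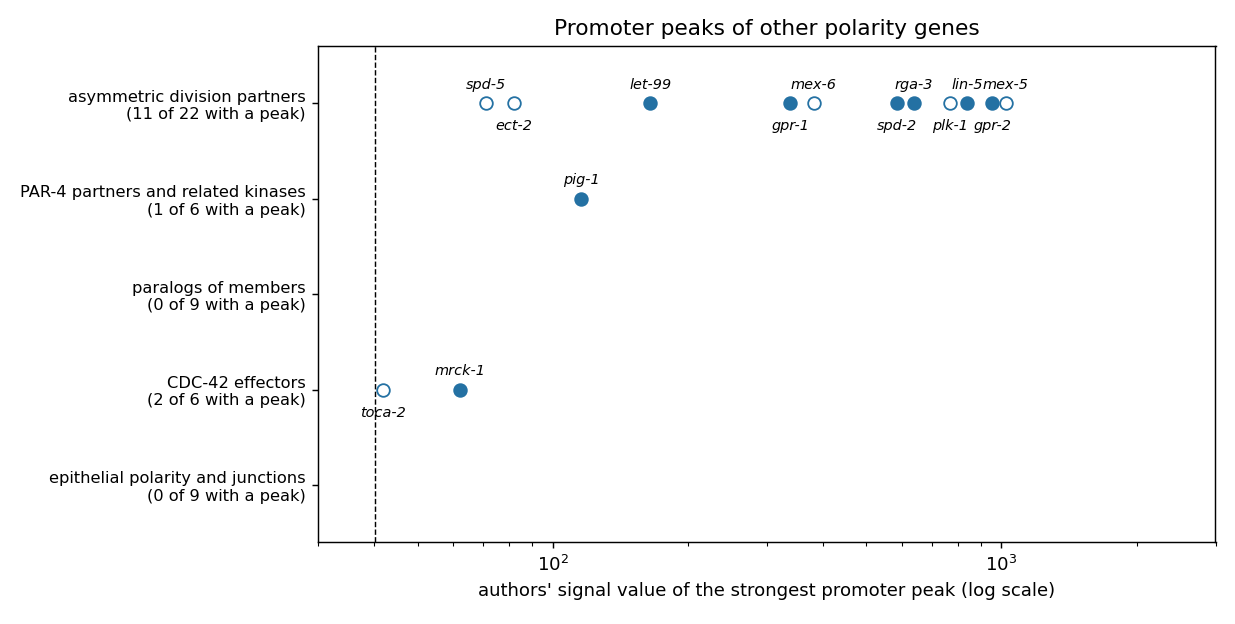
Signal value (x axis, log scale) of the strongest promoter peak of each of the 14 other polarity genes that have one, by role (y axis); filled points have an E2F core within 100 bp of the summit, open points have none, and the dashed line is the lowest optimal signal, 40.1. The 8 strongest all belong to the asymmetric division partners, led by mex-5 at 1021.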

How the data were processed

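ChIP-seq regions of 2 biological replicates of 1 group were used. The authors deposited a signal value per region, of unstated scale, in lists on ce11 that were called against a shared control, per the text deposited with each sample. The −log10 q-value deposited for each optimal peak is the same, 3.88, for all of them and was not used. Aligner, peak caller and threshold: not given in the sources used here. Control reads were not analysed here. The ce10 lists were not used. The optimal set equals the strongest regions of the joint list. Regions on the mitochondrial genome (23 optimal peaks) were left out, ranks are among nuclear regions, and coordinates count from 1.

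Start sites were the 5′ ends of protein-coding transcripts in Ensembl release 115 (WBcel235, the same assembly as ce11; 29314 sites). A summit is the region's start plus the deposited offset. Replicate values are those of the strongest overlapping region (at least 1 bp). Intervals are exact binomial 95% intervals. No test was made, since 1 group offers no contrast. The members, lists and rules were chosen with earlier results of these data known. All members and all listed genes with a promoter peak are named, and of the listed genes without one only some are; likeness to other genes was to be given for members with a promoter peak, and there were none. Assignment and motif search were tested on simulated data. Python 3.11.15, pandas 2.3.3, numpy 2.4.6, scipy 1.17.1 and Biopython 1.88 were used.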

Additional observations from a re-analysis of the deposited data

How the results depend on the processing

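The count of members with a promoter peak, 0 of 9, was the same with a window of 200 bp, with the 1401 strongest optimal peaks, with nearest start sites only, with outermost start sites and with RefSeq start sites. It was 4 with a window of 1000 bp, where 13.8% of all genes had a peak. With 2 times as many regions of the joint list it was 2 (par-5 and pkc-3), where 16.8% had one. A replicate was also left out, taking the 2802 strongest regions of the other. Without replicate 1 the count was 2 (par-5 and pkc-3), and 10.5% of all genes had a peak. Without replicate 2 it was 0, with 10.7% of all genes. With 1000 bp these counts were 5 and 4, with 13.4% and 13.5% of all genes. With 1000 bp and nearest start sites only the count was 3, with 10.2% of all genes. RefSeq start sites and these combined settings were chosen after seeing the data. The other polarity genes with a promoter peak, 14, fell to 7 with 200 bp, and to 11 with nearest start sites only or with the 1401 strongest peaks. They were 16 with 1000 bp and 18 with 2 times as many regions. Without replicate 1 they were 14. Without replicate 2 they were 15, with chin-1 and the paralog pkc-1 gained and toca-2 lost. Over all genes the share moved from 10.9% to 5.92% with 200 bp, 6.49% with the 1401 strongest peaks and 16.8% with 2 times as many regions. The upstream peaks with an E2F core stayed at 2 of 4 with 50 or 200 bp and were 3 with the shorter cores. Over all nuclear optimal peaks the share with a core was 24.8% with 50 bp and 33.5% with 200 bp. It was 48.0% with the shorter cores. The core count planned for members' promoter peaks could not be computed, as there were none. For single members the strongest signal near the start moved to the values given above with 1000 bp in par-1, par-2, par-3, par-5 and cdc-42, and with 200 bp to 13.6 in par-1 and 16.6 in pkc-3. No paired analysis was possible because there is 1 group. Depth is unknown from the lists, and weak regions near the bottom of the joint list are the least certain.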
